A study of Mus musculus with 2 samples.

Results

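The genes described here encode the DNA replication machinery and a large part of the DNA repair machinery of the mouse: the origin recognition complex, the MCM proteins, the GINS complex, the clamp loader, the replicative DNA polymerases, the fork protection pair Timeless and Tipin, the Fanconi anaemia proteins, and the proteins of homologous recombination, end joining and mismatch repair. They were chosen by name, as the gene symbols that match a pattern for these families. The pattern took 75 of 30744 symbols in the count table, and each had a single gene model. Of the 75 genes, 74 had at least 20 reads over both libraries and are called measured here, and the exception was Rad51ap2. By textbook role 70 genes fell into 13 groups. The other 5 (Mcm3ap, Fancd2os, Rad54l2, Xrcc6bp1 and Rad51ap2) matched the pattern by name alone and were kept apart as the 14th group.

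Before a cell divides, the origin recognition complex marks the start sites of replication and loads a ring of MCM proteins, MCM2 to MCM7, onto the DNA. CDC45 and GINS then switch the ring on as a helicase, and polymerases alpha, delta and epsilon copy the opened strands while the clamp loader places the sliding clamp PCNA. Repair proteins correct copying errors, remove crosslinks and rejoin broken strands. Most cells of an adult kidney are not dividing, and many replication genes are transcribed mainly in cycling cells under E2F transcription factors.

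The study compared 1 total RNA library from a normal mouse kidney with 1 from a kidney tumour. The normal kidney is labelled WT for genotype, without doxycycline. The tumour is labelled with the genotype Tet-OSKM/mPer2-luc and with doxycycline. For both, the strain is given as C57BL/6 x DBA/2 F1. In this system the reprogramming factors Oct4, Sox2, Klf4 and c-Myc stand behind a promoter that a doxycycline-dependent activator, expressed from the Rosa26 locus, switches on, and mPer2-luc reports the clock gene Per2 by luciferase. The labels describe chimeras made from embryonic stem cells with these transgenes and hybrid blastocysts, so such an animal also holds host cells without them, and ages are not given in the sources used here. The series title names disruption of the clock in tumours of this kind as the subject. The comparison is tumour against normal.

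Each group holds 1 library, so no replicate check and no p-value is possible. Statements are about these 2 libraries, not about the conditions. The normal library held 29258428 exon reads and the tumour library 20836819. Levels in CPM are counts scaled to library size with TMM factors, and levels in RPKM are the authors' deposited values, scaled to transcript length and total reads. The words higher and lower are used of tumour against normal where the CPM differed at least 2-fold and the exact 95% interval of the ratio excluded 1. All intervals cover counting error only. Markers of the tubule and collecting duct were lower in the tumour for 15 of 15 genes, with a summed level of 21866 against 826 CPM for the proximal tubule, 10196 against 50.6 CPM for the loop and distal tubule, and 265 against 5.54 CPM for the collecting duct. Podocyte markers were lower for 2 of 4 genes (329 to 211 CPM in sum) and endothelial markers for 2 of 4 (323 to 99.9 CPM), with the others neither. Fibroblast and stroma markers were higher for 2 of 5 genes, Col1a1 and Col3a1, with 3 neither (266 to 776 CPM), and leukocyte markers for 2 of 3 measured, Cd68 and Adgre1 (27.0 to 63.1 CPM). All 6 pluripotency markers were higher, from 0.0829 to 1370 CPM in sum, and 4 of them had 0 normal reads. Among them Pou5f1, the gene of Oct4, at 449 CPM and Sox2 at 151 CPM in the tumour are also factors of the transgene. Whether their reads came from the transgene was not tested. All 8 markers of cycling cells were higher, from 30.9 to 2943 CPM in sum. In RNA from whole tissue, more cells of a type and more RNA per cell cannot be told apart, and the part of these cell types in the results below was not tested.

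Of the 74 measured replication and repair genes, 55 were higher in the tumour, 2 lower and 17 neither. Of all 16326 measured genes 31.2% were called higher and 28% lower. The median ratio of the 74 genes was 4.51-fold, a log2 ratio of 2.17, beside 0.08 for all measured genes. Of the 74, 34 were at least 8-fold higher and 1, Fancd2os, at least 8-fold lower, against 12.2% and 9.16% of all measured genes. Together the 75 genes took 29126 reads in the normal library, 0.0995% of its exon reads (exact Clopper-Pearson 95% interval 0.0984% to 0.101%). In the tumour library they took 172608 reads, 0.828% (0.824% to 0.832%). These shares are of raw reads and are not TMM-scaled. With TMM the summed level of the 74 measured genes went from 1208 to 6828 CPM, 5.65-fold. Replication groups had a median log2 ratio of 3.30 over 36 genes, with 29 higher, and repair groups 1.81 over 34 genes, with 25 higher. Under 6 other scalings of the libraries 53 genes stayed higher and 2 stayed lower throughout, 6 were neither throughout, and the call of 13 moved between higher and neither. The scalings were plain CPM, header totals, DESeq2 size factors, upper quartile, RPKM plus 0.1 and RPKM plus 1. They are not independent, since header totals and both RPKM settings share the same totals and DESeq2 size factors changed no call. Calls on RPKM used the 2-fold limit without the interval.

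**Figure D1:**
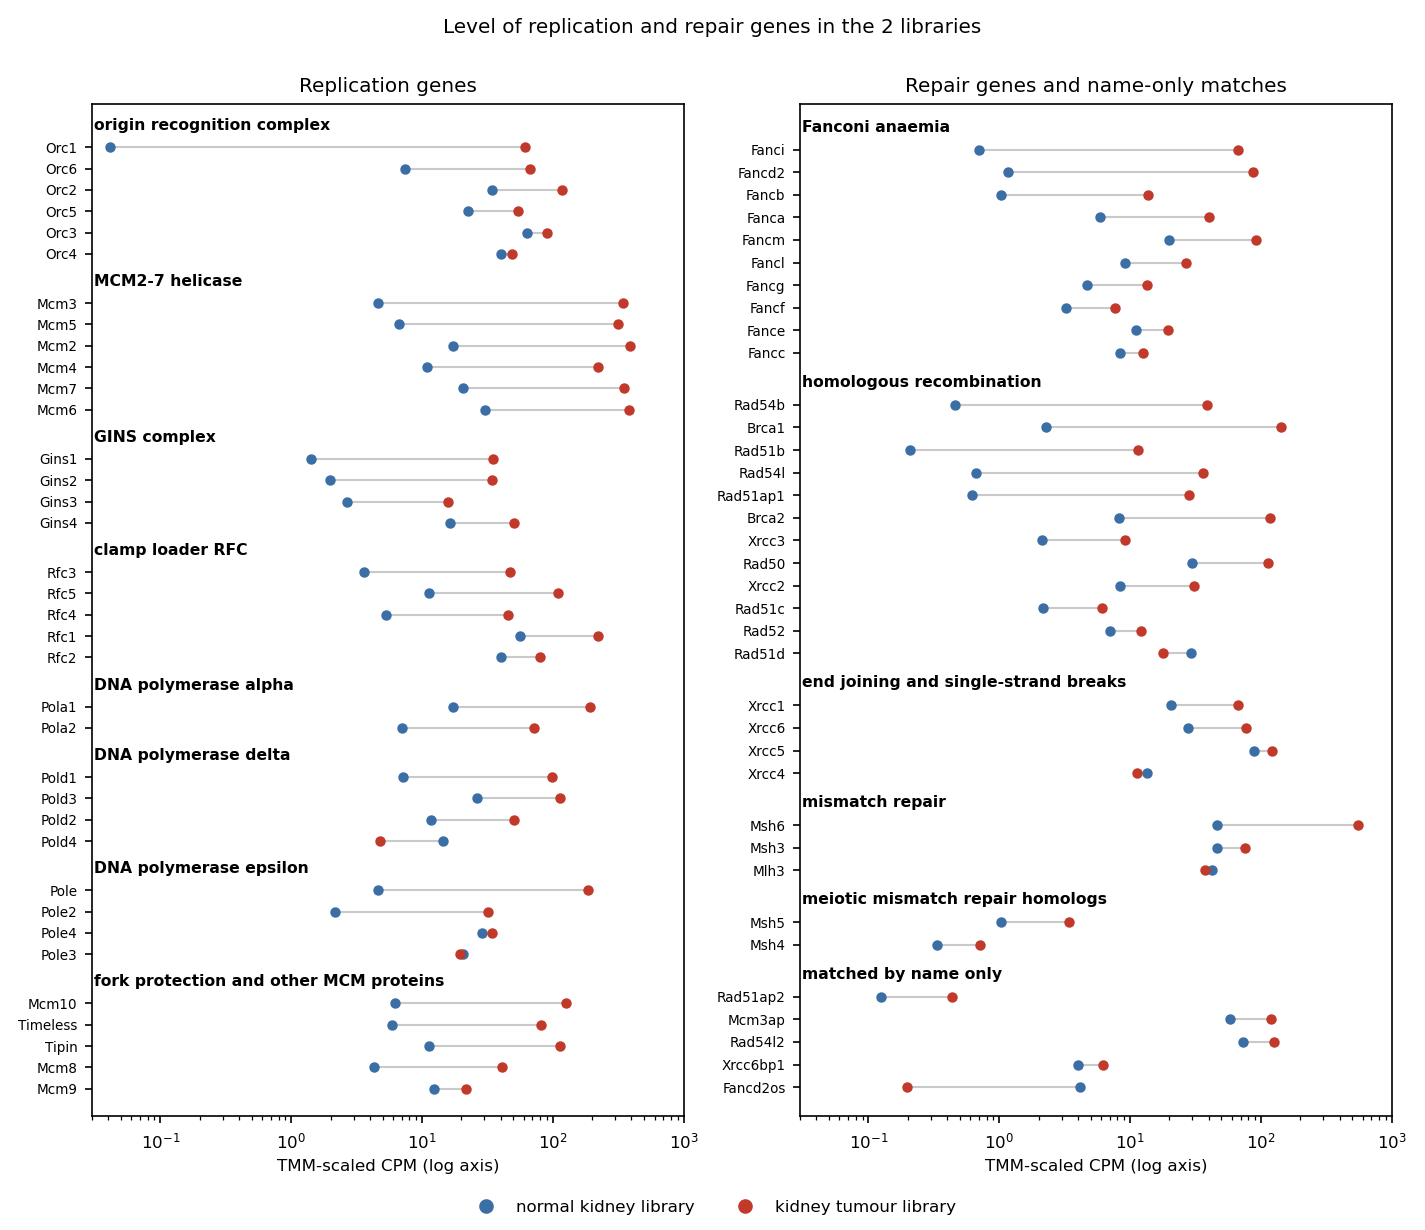
TMM-scaled CPM (log axis) of 72 of the 75 genes in the normal kidney library (blue) and the kidney tumour library (red), grouped by role, with 1 library per group and no error bars. The red point lies to the right of the blue in most rows; the exceptions are Pold4, Pole3, Rad51d, Xrcc4, Mlh3 and Fancd2os.

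The genes were low in the normal kidney and spread less in the tumour. The median level was 1.90 RPKM in the normal library, where 38.2% of measured genes lay below it, and 14.4 RPKM in the tumour library, where 78.2% did. In the normal library 24 of the 75 genes stood below 1 RPKM and 4 reached 10 RPKM, whereas in the tumour library 4 were below 1 RPKM and 49 reached 10 RPKM. The middle 50% of the genes lay between 0.757 and 5.27 RPKM in normal kidney and between 6.30 and 27.9 RPKM in the tumour. Of the 23 measured genes below 1 RPKM in the normal library 22 were called higher, of the 29 between 1 and 5 RPKM 20 were, and of the 22 at 5 RPKM or more 13 were. Since the normal level is the denominator of the ratio, this order is a description and not an independent relation.

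The origin recognition complex was divided, with Orc1 far apart from the other subunits. Of 6 genes 4 were higher and 2 neither, and the median log2 ratio was 1.53. Orc1 (chromosome 4, 108579454 to 108614831, mm10), the largest subunit and the one that is made anew in each cell cycle, had 1 normal and 1550 tumour reads. Its ratio of 1479-fold therefore carries a wide interval, 265 to 58442, and its direction was the same in every scaling tried. Orc6, which helps to load the MCM ring, went from 180 to 1691 reads (7.46 to 66.9 CPM), 8.96-fold higher (7.68 to 10.5). Orc2 was 3.46-fold higher (3.20 to 3.74) and Orc5 2.43-fold (2.19 to 2.69). The exons of Orc2 share 24.0% of their bases with Nif3l1 on the opposite strand. Of 74 genes found in the annotation, 27 share exon bases with a gene on the opposite strand, and the sources used here do not state whether counting used strand. Orc3 (1543 and 2294 reads, 1.42-fold, 1.33 to 1.51) and Orc4 (977 and 1235 reads, 1.21-fold, 1.11 to 1.31) stayed short of 2-fold, and Orc3 passed it with plain CPM. Per transcript length Orc1 was the lowest subunit in the normal library at 0.00826 RPKM, where the others lay between 2.70 and 6.51 RPKM. In the tumour library it stood at 15.6 RPKM, between Orc3 at 11.0 and Orc5 at 20.2 RPKM.

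Promoter stretches of 3 origin recognition genes are shown because the subunits differ so much in ratio. Each is the stretch directly before the RefSeq start on GRCm38.p6 (the mm10 assembly), 5′ to 3′ on the strand of the gene, at chr4:108579339-108579453 for Orc1, chr4:34614943-34615057 for Orc3 and chr2:48949268-48949382 for Orc4. Capitals mark letters of the E2F type, TTTCCCGC, TTTGGCGC, TTTCGCGC or TTTGCCGC on either strand.
Orc1: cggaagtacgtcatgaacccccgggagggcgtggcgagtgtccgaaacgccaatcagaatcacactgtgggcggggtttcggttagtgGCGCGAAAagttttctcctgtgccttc
Orc3: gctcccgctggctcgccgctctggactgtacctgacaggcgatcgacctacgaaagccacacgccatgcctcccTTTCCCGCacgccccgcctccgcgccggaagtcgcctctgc
Orc4: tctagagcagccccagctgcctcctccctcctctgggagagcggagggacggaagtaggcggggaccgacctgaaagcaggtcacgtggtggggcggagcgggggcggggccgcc
Orc1 holds 1 match, on the opposite strand. Orc3, which was not called, holds 1 match too, and Orc4 holds none in this window. A match is a description of letters and not of a bound site.

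All 6 subunits of the MCM2-7 helicase were higher, each by at least 12.7-fold, and the group median was 21.3-fold (log2 4.41). Mcm3 (chromosome 1, 20803014 to 20820213) had 111 normal and 8755 tumour reads, 75.2-fold higher (62.4 to 91.6). Mcm5 (chromosome 8, 75109509 to 75128439) had 161 and 7926 reads, 47.0-fold (40.2 to 55.2). These were the subunits with the least transcript in the normal kidney. Mcm2, with 415 and 9820 reads, was 22.6-fold higher (20.5 to 24.96), and Mcm4, with 265 and 5583 reads, 20.1-fold (17.8 to 22.8). Mcm7, with 495 and 8824 reads, was 17.0-fold higher (15.5 to 18.7), and Mcm6, with 726 and 9666 reads, 12.7-fold (11.8 to 13.7). The ring holds each subunit once, and per transcript length the subunits lay closer together in the tumour. In the normal library they ran from 0.957 RPKM for Mcm3 to 6.23 RPKM for Mcm6, a 6.51-fold span. In the tumour library they ran from 47.1 RPKM for Mcm4 to 112 RPKM for Mcm7, a 2.37-fold span, and Mcm7 was the highest of all 75 genes there.

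Promoter stretches of Mcm6 and Mcm5 are shown as the helicase genes with overlapping E2F letters before the start, with capitals as above. They lie at chr1:128359706-128359820 (minus strand) for Mcm6 and at chr8:75109349-75109508 (plus strand) for Mcm5.
Mcm6: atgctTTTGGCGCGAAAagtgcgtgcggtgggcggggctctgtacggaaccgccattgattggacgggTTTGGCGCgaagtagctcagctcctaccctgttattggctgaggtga
Mcm5: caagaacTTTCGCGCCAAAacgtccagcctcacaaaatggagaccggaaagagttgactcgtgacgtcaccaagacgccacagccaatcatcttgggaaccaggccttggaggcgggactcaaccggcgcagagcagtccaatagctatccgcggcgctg
Mcm6 holds 3 matches, of which 2 overlap as an inverted pair, and Mcm5 holds 1 such overlapping pair.

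The RefSeq promoter table matched 58 of the 75 genes, and 53 of these starts lay within 100 bases of the start of the deposited model. In the window from 250 bases before to 50 bases after the start, 21 of the 58 (36.2%) held the E2F letters, against 2.88% of 16881 promoters matched to the table and 3.92% of measured genes. The share was 24.1% against 2.01% in the window of 200 bases before the start. In the longer window 18 of the 42 genes called higher held them, and 3 of the 16 others (Msh3, Orc3 and Pole4). In the shorter window 11 of the 42 and 3 of the 16 held them, so the contrast was smaller there. The CCAAT box, the letters CCAAT on either strand, stood in 34 of 58 promoters (58.6%) against 38.5% of all. Letters of the CHR type, TTTGAA or TTCGAA on either strand, which are known from genes of mitosis, stood in 5 of 58 (8.62%), against 17.2% of all and 13.7% of measured genes. In the window of 200 bases before the start the share was 8.62% against 11.6% of all and 8.92% of measured genes, so no clear contrast remained there. Of the 5 helicase genes matched, Mcm3, Mcm5, Mcm6 and Mcm7 held E2F letters and Mcm2 did not, and all 5 held CCAAT. Pole, Fancd2 and Mcm4 are among the 17 genes for which no promoter was matched.

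GINS, the 4-subunit activator of the helicase, was higher throughout. Gins1 went from 34 to 886 reads, 24.9-fold higher (17.7 to 36.1), and Gins2 from 48 to 869 reads, 17.3-fold (12.9 to 23.6). Gins3 was 5.95-fold higher (4.56 to 7.87) and Gins4 3.11-fold (2.77 to 3.49), the latter from the highest level of the 4 in the normal library, 7.21 RPKM. Gins3 remained the lowest subunit per length, at 0.657 and then 4.99 RPKM, while in the tumour the other 3 lay between 24.7 and 28.6 RPKM. Gins2 shares 70.7% of its annotated exon bases, 2758 bases, with Gse1 on the opposite strand. The counted model has a transcript length of 1033 bases, so this share is of the annotation and not of that model.

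The clamp loader was higher for 4 of 5 subunits. The small subunits Rfc3 (87 and 1198 reads, 13.1-fold, 10.6 to 16.5), Rfc5 (9.76-fold, 8.62 to 11.1) and Rfc4 (8.52-fold, 7.09 to 10.3) had larger ratios than the large subunit Rfc1 (1348 and 5631 reads, 3.99-fold, 3.75 to 4.23). Rfc2, also a small subunit, had 975 and 2031 reads and a ratio below that of Rfc1, 1.99-fold (1.84 to 2.15). It was just short of the call and was called higher in 5 of the 6 other scalings. The subunits spanned 8.97-fold per length in the normal library, from Rfc3 at 1.79 to Rfc2 at 16.0 RPKM. In the tumour library they spanned 1.71-fold, from 28.6 to 49.0 RPKM.

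Within each replicative polymerase the catalytic subunit had the largest ratio. Both genes of polymerase alpha, which starts each new strand together with primase, were higher, Pola1 11.1-fold (10.1 to 12.3) and Pola2 10.1-fold (8.61 to 11.9). Pole (chromosome 5, 110286319 to 110337453), the catalytic subunit of the leading strand polymerase epsilon, had 112 and 4682 reads and was 39.9-fold higher (33.1 to 48.5). Its partner Pole2 was 14.8-fold higher (11.2 to 20.02), from 52 to 808 reads. The histone-fold subunits Pole3 and Pole4, which also serve in chromatin complexes, were not called. Pole4 had 690 and 873 reads, 1.21-fold (1.09 to 1.34). Pole3 had 496 and 493 reads, a log2 ratio of -0.08 that turned positive in 5 of the 6 other scalings, by at most 0.48. In the normal library Pole3 stood at 20.6 RPKM and Pole at 0.391 RPKM, a 52.7-fold gap. In the tumour library the 4 subunits lay within 1.72-fold of each other, from 14.5 to 24.98 RPKM.

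Polymerase delta, the lagging strand enzyme, held the only replication gene that was lower. Its catalytic subunit Pold1 went from 173 to 2486 reads, 13.7-fold higher (11.7 to 16.1). Pold3 was 4.29-fold (3.94 to 4.68) and Pold2 4.28-fold (3.77 to 4.89) higher. Pold4 (chromosome 19, 4231899 to 4233634), the smallest subunit, had 352 normal and 120 tumour reads, 3.07-fold lower (2.49 to 3.82), and was called lower in each of the 6 other scalings. It turned from the highest delta subunit per length in the normal library, 9.58 RPKM, to the lowest in the tumour, 3.98 RPKM. Its annotated exons share 24.6% of their bases with AC109138.7 on the same strand.

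**Figure D2:**
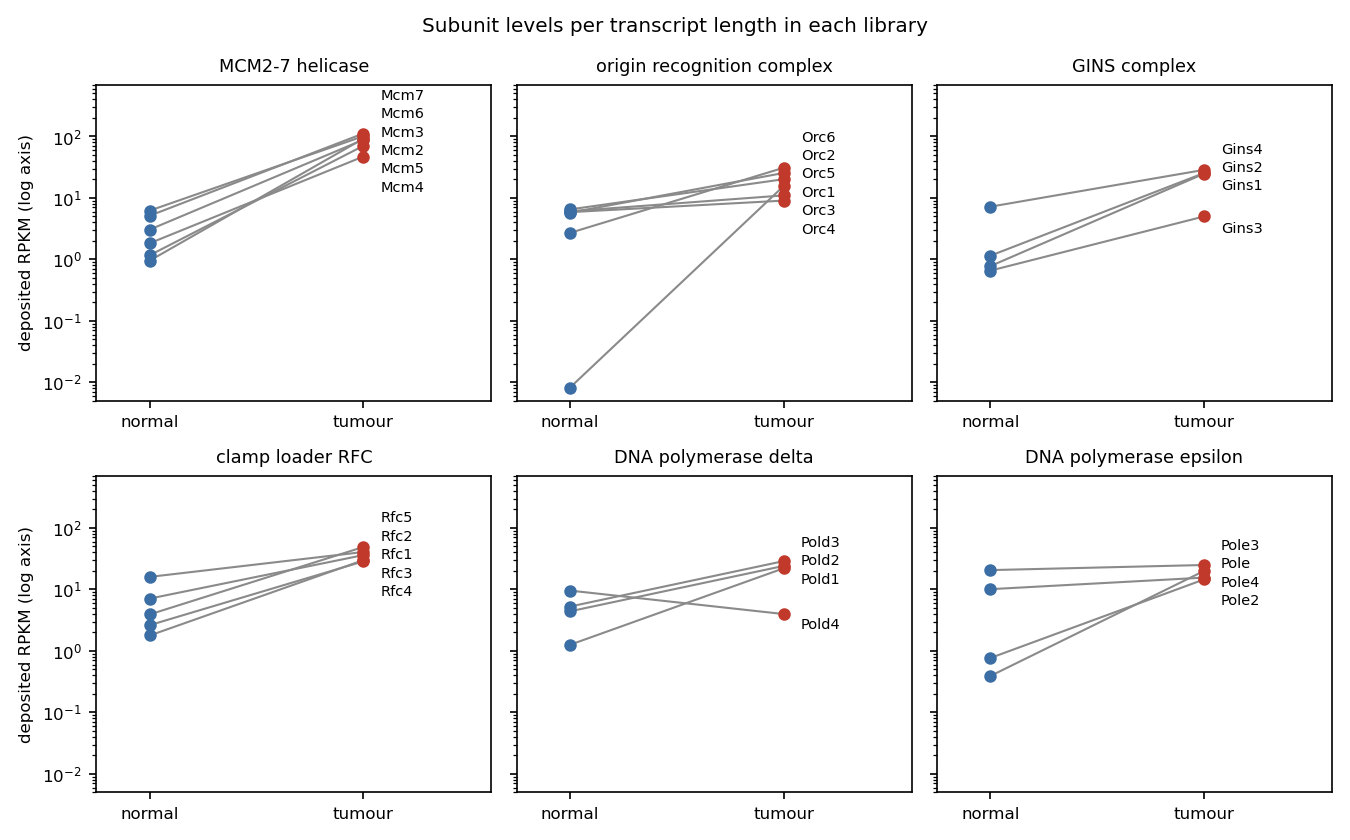
Deposited RPKM (log axis) of the subunits of 6 replication complexes in the normal (blue) and tumour (red) library, 1 library each, with lines joining the same gene and names listed in the order of the tumour level. The subunits of the MCM2-7 ring, the clamp loader and polymerase epsilon converge in the tumour, and Pold4 is the line that falls.

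Fork protection and the other MCM proteins were higher for 4 of 5 genes. Mcm10, an initiation factor outside the ring, went from 150 to 3200 reads, 20.4-fold higher (17.3 to 24.1). Timeless and Tipin, which travel with the fork as a pair, were 13.8-fold and 9.98-fold higher, and their gap per length narrowed little, from 7.11-fold to 5.15-fold. MCM8 and MCM9 form a helicase of recombination, and their transcripts moved unequally. Mcm8 was 9.45-fold higher (7.72 to 11.7), while Mcm9 had 296 and 552 reads, 1.78-fold (1.54 to 2.06), and was called in 4 of the 6 other scalings. Per length Mcm9 exceeded Mcm8 in the normal library by 2.55-fold, and Mcm8 exceeded Mcm9 in the tumour by 2.09-fold.

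In the Fanconi anaemia pathway 8 of 10 genes were higher, led by the pair at its centre. FANCD2 and FANCI form the clamp that the pathway's ubiquitin ligase places on DNA at a crosslink. Fanci (chromosome 7, 79392338 to 79450264) had 17 and 1677 reads, 94.1-fold higher (58.6 to 162). Fancd2 (chromosome 6, 113531682 to 113596285) had 28 and 2185 reads, 74.4-fold (51.4 to 112). Their levels per length stayed close, 0.0918 and 0.146 RPKM in normal kidney and 11.0 and 13.9 RPKM in the tumour. Subunits of the ligase that modifies them changed less. Fancb was 13.3-fold higher (8.87 to 20.9), Fanca 6.87-fold (5.76 to 8.24), and Fancl, its catalytic subunit, 2.89-fold (2.48 to 3.38). Fancg and Fancf were 2.89-fold and 2.37-fold higher, and Fancm, a translocase that recruits the ligase, 4.66-fold (4.22 to 5.16). Fance (1.76-fold, 1.52 to 2.05) and Fancc (201 and 318 reads, 1.51-fold, 1.26 to 1.81) were not called. With other scalings Fance was called in 4 of 6 and Fancc with plain CPM.

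Homologous recombination was higher for 11 of 13 genes, with a median ratio of 14.4-fold (log2 3.85). In this pathway a broken end is paired with its sister template, a step for which BRCA2 and, upstream of it, BRCA1 are needed. Brca1 (chromosome 11, 101488764 to 101551955) had 55 and 3619 reads, 62.8-fold (48.1 to 83.5), and Brca2 198 and 2992 reads, 14.4-fold (12.5 to 16.7). The motor proteins of strand exchange were among the largest ratios of the group. Rad54b had 11 and 986 reads, 85.5-fold (47.6 to 172), and Rad54l 16 and 913 reads, 54.4-fold (33.3 to 95.6). The annotated exons of Rad54b share 39.1% of their bases, 2068 bases, with Fsbp on the same strand. The counted model has a transcript length of 2910 bases, so this share too is of the annotation. Rad51ap1, an accessory factor of strand exchange, was 45.0-fold higher (27.1 to 80.9).

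Rad51b, Rad51c, Rad51d, Xrcc2 and Xrcc3, whose products assist strand exchange in subcomplexes, did not move as a set. Rad51b had 5 and 293 reads, 55.9-fold higher with a wide interval (23.7 to 173). Xrcc3 was 4.36-fold higher (3.21 to 6.02), Xrcc2 3.70-fold (3.16 to 4.34) and Rad51c 2.81-fold (2.04 to 3.92), the last not called with RPKM plus 1. Rad51d had 709 normal and 452 tumour reads, a log2 ratio of -0.72 that was short of a call in every scaling tried. Rad52 had 168 and 308 reads (1.75-fold, 1.44 to 2.12). It was not called with TMM but was higher with plain CPM, header totals, upper quartile and RPKM plus 0.1. Rad50, the break sensor of the group, was 3.82-fold higher (3.52 to 4.15).

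End joining and single-strand break repair had the smallest median among the 5 repair groups, a log2 ratio of 0.96. XRCC5 and XRCC6, known as Ku80 and Ku70, form the ring that caps a broken end. Xrcc6 was 2.77-fold higher (2.53 to 3.03). Xrcc5, with 2142 and 3053 reads, was 1.36-fold (1.29 to 1.44) and among the other scalings was called only with plain CPM. Xrcc5 was the most abundant of the 75 genes per length in the normal kidney, at 20.9 RPKM. Xrcc4, a partner of the end-joining ligase, had 327 and 284 reads and a log2 ratio of -0.27, which turned positive in 4 of the 6 other scalings, by at most 0.29. Xrcc1, a scaffold of single-strand break repair, was 3.21-fold higher (2.90 to 3.55).

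Mismatch repair, which corrects copying errors left behind the fork, was higher for 3 of 5 genes, with a median log2 ratio of 1.10. Msh6 (chromosome 17, 87975050 to 87990892), whose product recognises single mismatches, had 1110 and 13868 reads and was 11.9-fold higher (11.2 to 12.7). It had the highest CPM of all 75 genes in the tumour library. Msh3, whose product recognises larger loops, had 1119 and 1927 reads, 1.64-fold (1.53 to 1.77), and was called higher only with plain CPM, header totals and RPKM plus 0.1. In the normal library Msh3 stood at 7.06 RPKM and Msh6 at 6.46 RPKM, and in the tumour library at 14.8 and 98.3 RPKM. Mlh3, which acts after recognition, had 1022 and 947 reads, a log2 ratio of -0.18 that turned positive in 5 of the 6 other scalings.

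The meiotic homologs Msh4 and Msh5, which act at crossovers in germ cells, were close to the limit of counting. Msh5 had 25 and 87 reads, 3.32-fold higher (2.11 to 5.41, not called with RPKM plus 1). Msh4 had 8 and 18 reads with an interval that included no difference (0.888 to 5.71). With plain CPM, header totals and upper quartile Msh4 was called higher. Germ cell and meiosis markers were higher for 5 of 5 (Ddx4, Dazl, Sycp3, Stra8 and Dmc1), from 0.581 to 99.3 CPM in sum. Each had only 1 to 6 reads in the normal library. Their part in the Msh5 value was not tested. Of the genes matched by name alone, Mcm3ap, an mRNA export factor, was 2.07-fold higher (1.95 to 2.21). Rad54l2 and Xrcc6bp1 were short of 2-fold with TMM, at 1.73-fold and 1.55-fold. Both were called higher with plain CPM, and Rad54l2 also with header totals, upper quartile and RPKM plus 0.1. Rad51ap2 had 3 and 11 reads and was not measured.

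Fancd2os, the gene on the opposite strand next to Fancd2, moved against it. It lies on chromosome 6 (113596762 to 113600715) on the minus strand, just past the end of the Fancd2 model. It had 100 normal and 5 tumour reads, 20.96-fold lower (8.69 to 66.0), and was called lower in each scaling. Its annotated exons share 18.9% of their bases with Fancd2, whose count rose from 28 to 2185.

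Several of these genes share a start region with a gene on the other strand, and the ratios of the 2 sides mostly differed. Measured neighbours that start within 1000 bases and point away from the replication or repair gene were found for 23 genes. In 18 of these 23 pairs the replication or repair gene was higher, and its neighbour was higher in 3, lower in 5 and neither in 10. The share of lower neighbours was near that of all measured genes, of which 28% were lower and 31.2% higher. The median log2 ratio was 3.16 for the replication and repair genes and -0.24 for the neighbours. Pole and Pxmp2, a peroxisomal membrane channel, start 151 bases apart: Pole was 39.9-fold higher and Pxmp2, with 1558 and 147 reads, 11.1-fold lower (9.38 to 13.2). Fancd2 and Emc3, a membrane protein insertase, start 44 bases apart, and Emc3 went from 2538 to 897 reads, 2.97-fold lower (2.75 to 3.20). Both neighbours were called lower in each scaling. The other 3 lower neighbours, Nbr1 beside Brca1 (152 bases, 2.32-fold lower), D6Wsu163e beside Rad51ap1 (2.32-fold) and Zfyve21 beside Xrcc3 (2.53-fold), were short of the call with plain CPM, header totals and RPKM.

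Mcm4 and Prkdc, the kinase of end joining, start 466 bases apart, with Mcm4 20.1-fold higher and Prkdc at 1.45-fold (1.38 to 1.53). Mcm7 and Ap4m1, an adaptor subunit of vesicle transport, start 159 bases apart, and Ap4m1 had 340 and 353 reads. Orc6 and the retromer subunit Vps35 start 135 bases apart, and Vps35 had a log2 ratio of -0.53. Among the neighbours that were higher were Prpf38a beside Orc1 (118 bases, 3.14-fold, 2.85 to 3.47), a splicing factor, and Trmt6 beside Mcm8 (87 bases, 2.67-fold, 2.41 to 2.95), a transfer RNA methyltransferase subunit. The antisense model AK140919 (6 and 19 reads) was higher too. It starts 727 bases inside the Timeless model and overlaps its start, and whether counting used strand is not stated. The reverse case was Pole3, whose neighbour 4933430I17Rik was higher from 8 to 24 reads.

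Stretches before Brca1 and Fanci are shown as genes with large ratios whose matched promoters hold no E2F letters, and Pole3 as a gene without such letters whose count stayed level. The Brca1 stretch (chr11:101551956-101552070, minus strand) lies within the gap to Nbr1, and the others lie at chr7:79392223-79392337 (plus strand) and chr4:62525015-62525129 (minus strand), on GRCm38.p6, with no capitals because no match was found.
Brca1: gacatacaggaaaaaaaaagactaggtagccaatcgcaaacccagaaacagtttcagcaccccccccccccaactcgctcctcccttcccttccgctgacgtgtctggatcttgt
Fanci: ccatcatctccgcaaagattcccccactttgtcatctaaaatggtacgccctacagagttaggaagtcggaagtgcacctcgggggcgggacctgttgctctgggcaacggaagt
Pole3: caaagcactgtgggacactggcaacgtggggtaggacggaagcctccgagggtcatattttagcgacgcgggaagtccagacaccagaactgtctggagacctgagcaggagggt
The absence of these letters says only that they do not stand in this window.

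**Figure D3:**
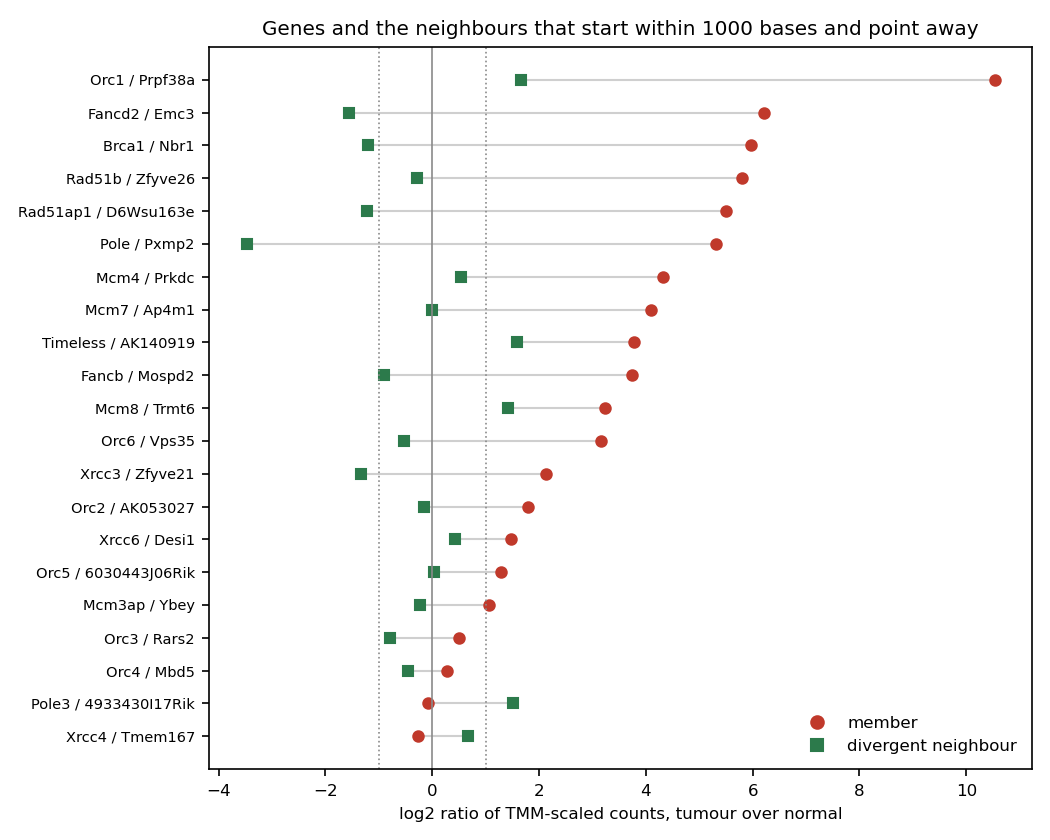
Log2 of the tumour to normal ratio, from TMM-scaled counts, for 21 of the 23 measured pairs of a replication or repair gene (red circle) and the gene that starts within 1000 bases on the other strand (green square), with dotted lines at 2-fold. The red points reach 10.53 for Orc1, whereas the green points lie between -3.47 for Pxmp2 and 1.65 for Prpf38a.

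Replication and repair genes whose names the pattern misses were taken from 8 lists of textbook genes. Over these lists 65 of 114 measured genes were higher, 2 lower and 47 neither. Initiation and fork genes were higher for 27 of 29, with a median log2 ratio of 4.18. The largest ratio in this list was that of Ticrr, which brings CDC45 to the ring, with 4 and 2255 reads (538-fold, 210 to 1976), and the smallest that of Rnaseh2c, a subunit of ribonuclease H2, with 572 and 643 reads (1.07-fold, 0.957 to 1.20). Rnaseh2b was the other gene without a call. Pcna, the sliding clamp, went from 30.4 to 172 CPM, 5.67-fold higher (5.24 to 6.14).

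Other repair pathways were divided. Recombination and crosslink genes outside the pattern were higher for 11 of 17, with a median of 3.68, and 1 of them, Dmc1, is also among the germ cell markers above. Exo1, the nuclease of resection and mismatch repair, had 14 and 2614 reads, 178-fold higher (106 to 326), and Slx4, a nuclease scaffold, was the smallest with a log2 ratio of -0.79. Hormad1, a meiotic axis protein with 0 and 305 reads, was at least 97.0-fold higher against a floor of 3 reads in the normal library, so it and Exo1 cannot be ranked. Checkpoint genes were higher for 8 of 12, from the S-phase kinase Chek1 at 64.8-fold (42.7 to 104) to the clamp subunit Hus1 with a log2 ratio of -0.75. Base excision repair genes were higher for 9 of 18, led by the uracil glycosylase Ung at 45.5-fold (31.1 to 69.3). Genes of the translesion list, which holds Rad18 and Mad2l2 beside polymerases, were higher for 4 of 9. Polq led at 23.5-fold (17.3 to 32.7), and Mad2l2 was the smallest at a log2 ratio of -0.31. Direct reversal and MutL partner genes were higher for 3 of 5, from Pms2 at 4.85-fold (4.13 to 5.72) to Alkbh3 with a log2 ratio of -0.96.

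A pair of pathways stood below the background share of 31.2% with TMM scaling. Nucleotide excision repair, which removes bulky lesions, was higher for 3 of 18 genes (Ercc8, Gtf2h3 and Gtf2h4), lower for 2 and neither for 13, with a median of 0.27. Ercc8 was the largest at 3.05-fold (2.52 to 3.70). Xpc, the lesion sensor, had 1960 and 951 reads (2.16-fold lower) and Cetn2, its partner, 1369 and 584 reads (2.46-fold lower), and neither call held with plain CPM, header totals or RPKM. End joining genes outside the pattern, a list that does not hold Polq, were called for 0 of 6. These genes ranged from Nhej1 at 1.96-fold (1.51 to 2.57) to Poll at 1.04-fold (0.898 to 1.20). With plain CPM, where 42.1% of all measured genes were higher, 7 of 18 nucleotide excision genes were, a lower share, and 3 of 6 end joining genes, a share above that background.

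**Figure D4:**
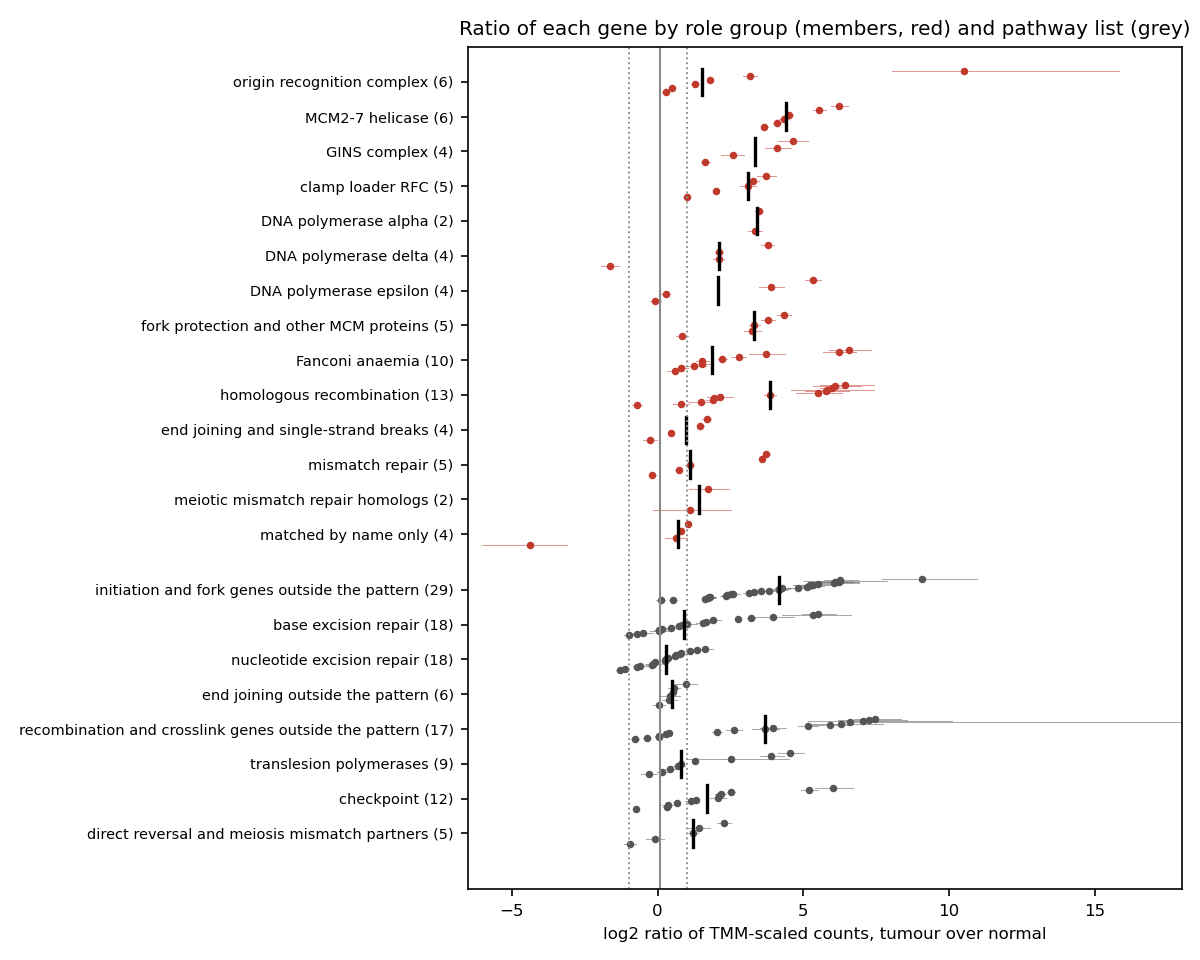
Log2 of the tumour to normal ratio, from TMM-scaled counts, of each measured gene in the 14 role groups (red) and 8 further pathway lists (grey), with 95% counting intervals as thin lines, group medians as black bars, the median of all measured genes (0.08) as the grey line and 2-fold as dotted lines. Intervals that run past the axis are cut at its edge; the medians run from 4.41 for the MCM2-7 helicase to 0.27 for nucleotide excision repair.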

How the data were processed

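Libraries were stranded and made from 0.25 ug of total RNA without ribosomal RNA, per the labels' protocols. The table deposited by the authors holds raw counts for the exons of 32958 UCSC gene models on mm10, with totals of 40408775 and 33169818 reads per the file headers. The RPKM deposited by the authors match counts over length and header total to within 1.80e-06. Tools named in the submitters' processing notes are STAR 2.5.0c, HOMER and bcl2fastq, with no roles. The treatment of multi-mapping reads is not stated in these sources.

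For each symbol the model with most reads was kept. Genes with at least 20 reads over both libraries were scaled with TMM (edgeR 4.0.16, R 4.3.3), with factors of 0.824 and 1.21. Intervals are exact conditional (Clopper-Pearson) 95% intervals of the 2 counts, and PCR copies were not told apart. Counts of 0 were set to a floor of 3 for ratios, which touched no replication or repair gene of the pattern. Promoter sequences are from RefSeq (GRCm38.p6), and exon overlaps from GENCODE M21. Python 3.11.15 with pandas 2.3.3, scipy 1.17.1 and matplotlib 3.10.9 was used for the rest.

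Members, role groups and lists were chosen with earlier results of these data known. Named genes are all MCM2-7 genes, the largest and smallest ratio of each group, every gene called lower, and in each further list the largest and smallest among genes with a mean of at least 1 CPM. Many further genes of the pattern are named to account for every role, and these, with the non-lower neighbours, were chosen after their values were seen. Single values of a few genes are not reported here; these genes remain in the counts and medians.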

Additional observations from a re-analysis of the deposited data

How the results depend on the processing

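The count of 55 replication and repair genes higher lay between 40 (at least 4-fold) and 66 (plain CPM) over the 12 alternatives, and no call reversed. The 2 lower genes became 1 at 4-fold, where Pold4 dropped out. The median log2 ratio of 2.17 moved to 2.73 with plain CPM, which raised the median of all genes by 0.56 (header totals by 0.35, RPKM plus 0.1 by 0.32, upper quartile by 0.23, RPKM plus 1 by 0.16). The share of calls that were higher among all genes went from 52.8% to 67.6% (plain CPM), 62.5% (header totals), 62.6% (RPKM plus 0.1), 59.3% (upper quartile) and 59.2% (RPKM plus 1). Of the other pathway genes the 2 lower became 0 with plain CPM, header totals, both RPKM settings and 4-fold, 1 with upper quartile and 9 at 1.5-fold. Calls over all genes fell to 3023 higher and 2573 lower at 4-fold, and to 2758 lower with RPKM plus 1. The 5 pairs with a higher gene and a lower neighbour became 2 with plain CPM, header totals and RPKM and 3 with upper quartile, a check added after seeing the data.

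No paired analysis was possible because each group holds 1 library, and leaving out a library was not possible for the same reason. Ratios of genes with few reads in the normal library, such as Orc1 with 1 and Rad51b with 5, are limited by depth.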

Other observations

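The E2F transcription factors and the Rb family, which control transcription at the start of S phase, were divided. Among 13 measured genes the median log2 ratio was 1.33, and 7 were higher, 2 lower and 4 not called. E2f7 had 6 and 574 reads (91.3-fold higher, 41.7 to 250) and E2f8 7 and 421 reads (57.4-fold, 27.6 to 144), and E2f1 was 8.72-fold higher (6.75 to 11.4). E2f4 was 3.58-fold higher (3.18 to 4.04). Rbl2, which encodes p130, a partner of repressive E2F factors in resting cells, had 2970 normal and 330 tumour reads, 9.43-fold lower (8.42 to 10.6). Rb1 was 2.26-fold lower (2.05 to 2.498). The other gene of the Rb family, Rbl1, was not called with TMM (1.91-fold, 1.68 to 2.19). It was higher with plain CPM, header totals, upper quartile and RPKM plus 0.1. In 6 other scalings, added after seeing the data, Rbl2 stayed lower throughout, and Rb1 was called lower only with DESeq2 size factors, with a log2 ratio of -0.62 for plain CPM. The count of higher genes lay between 7 and 10 of 13 in these scalings. The genes named here were chosen after their values were seen.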
